A study of Mus musculus with 6 samples.

Results

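The Hox genes encode homeodomain transcription factors that give cells along the body axis and along the limb their positional identity. All members were taken whose symbol in the count table reads Hox, a cluster letter from a to d and a number, which gave 32 of 17128 genes. Of these, 11 lie in the Hoxa cluster, 9 in Hoxb, 9 in Hoxc and 3 in Hoxd. RefSeq lists 39 mouse genes with such names, and the other 7 (1 of Hoxb, 6 of Hoxd) were not analysed here, so no statement covers the Hoxd cluster as a whole. The rule reads symbols and uses no measured value, but it was set with earlier results of these data known.

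Gene expression was measured by bulk RNA sequencing of stromal cells sorted from the femurs (bone and marrow) of mice at postnatal day 21, with about 20000 cells per library. The control group (n = 3 libraries) was GFP+ cells of the genotype Cxcl12(GFP/fl); R26R(tdTomato/+). The CXCL12-deficient group (n = 3 libraries, called the deficient libraries) was GFP+tdTomato+ cells of Cxcl12(GFP/fl) mice with R26R(tdTomato/+) that also carried Col2a1-cre. Both groups thus carried GFP on 1 allele of Cxcl12, the chemokine gene that marks marrow stroma, a floxed other allele and a tdTomato reporter, and the distal growth plates had been removed from all femurs. Col2a1-cre is active in cartilage precursors, so the deficient gate kept cells descended from those, while the control gate made no such selection. Gate, cre and the floxed allele cannot be told apart in this comparison. The labels name no separate animals for the libraries, and the p-values cover no more than the spread from library to library.

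The floxed gene checks the labels. Exon 2 of Cxcl12 had 375, 413 and 366 CPM (read counts scaled to the library total, with TMM factors) in the control libraries and 34.6, 22.6 and 21.8 CPM in the deficient ones, which kept 6.85% of the control mean. The libraries held between 20133299 and 28009257 counts, and a single read came to between 0.0357 and 0.0472 CPM.

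Hox genes sit in clusters in which gene order follows the order of expression along the body, from group 1 at the 3′ end to group 13 at the 5′ end. Members of a paralogue group in different clusters descend from 1 ancestral gene and share much of their function. In the limb, genes of groups 9 and 10 are known for patterning the upper segment, group 11 for the middle segment and group 13 for the foot. Adult skeletal stroma keeps such a code, and Hox proteins bind DNA together with Pbx, Meis and Pknox homeodomain partners. Polycomb proteins hold Hox genes silent and Trithorax proteins keep them active. Some of the same genes, Hoxa9 and Hoxa10 among them, are also expressed in blood progenitors.

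The Hox code of the sorted femur cells was read as transcript levels in bulk RNA. Its members differ in the homeobox, the part of the gene that codes for the DNA-binding domain. The 51 bases that code for the end of that domain, with its DNA recognition helix, are shown for 6 members of groups 9 to 13 that carried the code or sat next to it. They were read from the GENCODE M21 transcripts (GRCm38) in the coding direction, 5′ to 3′, and capitals mark bases that differ from Hoxa10.
Hoxa10 (chr6:52232560-52232610, minus strand): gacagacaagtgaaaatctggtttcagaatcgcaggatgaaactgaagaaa
Hoxa11 (chr6:52243408-52243458, minus strand): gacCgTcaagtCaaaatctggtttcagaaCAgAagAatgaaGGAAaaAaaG
Hoxa13 (chr6:52258934-52258984, minus strand): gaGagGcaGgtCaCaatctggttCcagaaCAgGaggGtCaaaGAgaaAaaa
Hoxc9 (chr15:102984053-102984103, plus strand): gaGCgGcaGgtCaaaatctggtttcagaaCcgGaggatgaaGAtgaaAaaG
Hoxc10 (chr15:102970971-102971021, plus strand): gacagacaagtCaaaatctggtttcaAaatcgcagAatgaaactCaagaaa
Hoxc11 (chr15:102956603-102956653, plus strand): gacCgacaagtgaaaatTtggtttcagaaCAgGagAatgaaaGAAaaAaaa
Over the whole 180-base homeobox, Hoxc10 was 80.6% identical to Hoxa10 and Hoxc9 74.4%. The next gene in the cluster, Hoxa11, was 67.8% identical, Hoxc11 70.0% and Hoxa13 55.6%. Of all stretches of 50 bases in the exons of the 32 members, those shared with another member came to at most 6.4% of a gene (Hoxc10, with Hoxc5, whose annotated exons overlap).

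Of the 32 Hox genes, 16 were on, meaning at least 1 CPM in each of the 6 libraries. Another 6 were near zero, below 0.5 CPM in every library. The remaining 10, called intermediate, met neither condition in all 6 libraries. The Hoxa cluster (chromosome 6, minus strand) held 7 of the genes that were on and none near zero. In the Hoxc cluster (chr15:102921103-103036852, GRCm38) 6 of 9 were on and 2 were near zero. The Hoxb cluster (chr11:96271457-96368256) had 2 of 9 on and 3 near zero. Among the 3 Hoxd genes (chr2:74697727-74748442), 1 was on and 1 near zero.

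Levels of different genes were compared as CPM per kilobase of annotated exon, averaged over the 6 libraries. Hoxa10 (chr6:52231197-52240854), a group 10 gene that patterns the upper limb segment, stood first with 44.6 CPM per kilobase. Every one of its libraries lay above all 6 libraries of every other member. Hoxc10 (chr15:102966796-102971893), its paralogue, came next with 9.44. Hoxb2 with 7.44, Hoxa9 with 7.38 and Hoxa7 with 7.36 CPM per kilobase were not separated by their spread over libraries. Hoxc6 followed with 6.66, Hoxc9 with 6.13 and Hoxa5 with 5.50 CPM per kilobase. The group 11 gene Hoxa11, which is next to Hoxa10 on the chromosome, had 3.77 CPM per kilobase and lay below Hoxa5 in all 6 libraries. From Hoxc5 (3.29) and Hoxc4 (2.65) the levels went down through Hoxc8 (1.93), Hoxa4 (1.89) and Hoxd8 (1.78). Another 16 genes averaged under 1 CPM per kilobase.

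**Figure D1:**
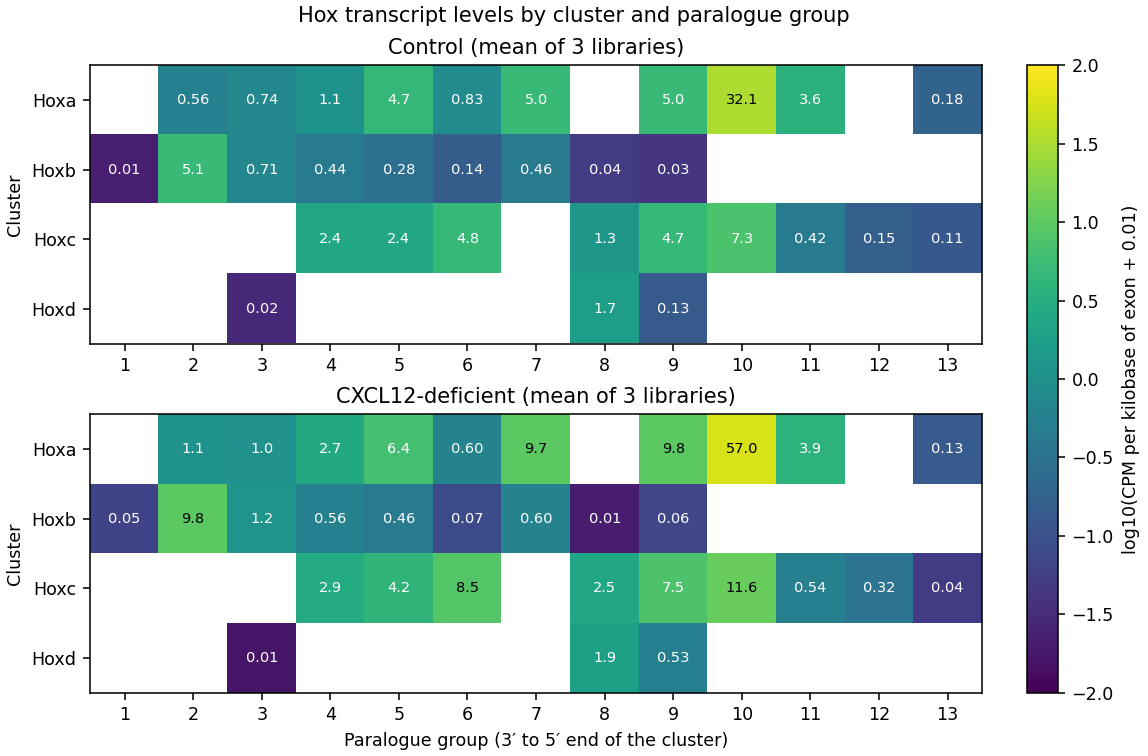
Mean level of 31 Hox genes in control and deficient libraries, in CPM per kilobase of exon, printed in the cell and coloured on a log10 scale, by cluster (rows) and paralogue group (columns). Blank cells have no value shown. Hoxa10 is the brightest cell in both maps, and Hoxa13, Hoxc12 and Hoxc13 at the right edge are dark.

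By paralogue group, most of the signal of the analysed members came from groups 9 and 10. The 7 Hox genes that were not analysed are in none of these shares. The 6 analysed genes of groups 9 and 10 made up 56.9% ± 3.77 of the summed CPM per kilobase of all members in the control libraries. In the deficient ones they made up 58.4% ± 4.38 (SD, n = 3 each). Hoxa10 alone gave 36.9% ± 2.04 and 38.2% ± 4.87. The 14 members of groups 4 to 8 gave 29.0% and 28.4%, and the 7 of groups 1 to 3 gave 8.93% and 9.92%. The 5 members of groups 11 to 13 gave 6.10, 3.81 and 5.55% in the control libraries and 3.16, 3.30 and 3.54% in the CXCL12-deficient ones. The groups of libraries did not overlap in that last share. A share also depends on the other members, and in CPM Hoxa11, the highest of these 5, overlapped between the groups. By cluster, Hoxa gave 62.7% and 63.3%, Hoxc 27.2% and 26.1%, Hoxb 7.93% and 8.90%, and Hoxd 2.19% and 1.62%.

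The 5 analysed genes of the 5′ end, groups 11 to 13, were low apart from Hoxa11. Members of these groups that were not analysed are not covered. Hoxa13 (chr6:52257694-52260880), a foot gene, was the last of its cluster, with 20, 1 and 12 reads in the control libraries and 5, 1 and 16 reads in the CXCL12-deficient ones. It thus had at least 1 read in every library and at most 0.714 CPM. Hoxc11 had 1.78, 0.406 and 0.331 CPM in the control libraries and 0.958, 1.22 and 1.07 CPM in the deficient ones. Hoxc12 and Hoxc13 were near zero by the limit above: Hoxc12 stayed at or below 0.428 CPM and Hoxc13 at or below 0.321 CPM in every library. Control replicate 1 held the highest control value of each of these 4 genes.

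The other genes near zero were Hoxb1, Hoxb8, Hoxb9 and Hoxd3, none above 0.480 CPM in any library. Hoxb1, of the hindbrain code, had 11 reads over the 6 libraries together, Hoxb8 10, Hoxb9 17 and Hoxd3 8. Each of these 4 had libraries without a read, where a count of 0 allows a level of up to 0.107 to 0.142 CPM (3 counts, counting error only). The group 9 paralogue Hoxb9 was therefore near zero in the same libraries in which Hoxa9 had 24.6 CPM or more. Hoxb6 had no reads in 3 libraries and at most 0.678 CPM in the others.

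Of the remaining intermediate genes, Hoxa2 ran from 0.732 to 3.42 CPM and Hoxa6 from 0.333 to 1.14 CPM. Hoxb4, Hoxb5 and Hoxb7 had at most 1.79, 1.96 and 1.25 CPM and at least 0.854, 0.0945 and 0.142 CPM. Hoxd9, a group 9 gene of the upper limb segment, had 0.0357, 0.163 and 0.614 CPM in the control libraries and 0.791, 0.349 and 2.26 CPM in the deficient ones. Among the lower genes that were on, Hoxa3 ran from 2.32 to 6.64, Hoxb3 from 1.84 to 5.54 and Hoxd8 from 2.27 to 6.88 CPM. Hoxa3, Hoxb3 and Hoxd3 share 27.1%, 52.9% and 62.8% of their annotated exon bases with other genes, and since no source used here gives the strand setting of the counts, their levels are uncertain.

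The DNA just upstream of the start sites is shown for the highest gene, its called neighbour and the low gene at the end of the cluster. The 250 bases before the start come from RefSeq (GRCm38.p6), 5′ to 3′ in the gene's direction, and capitals mark CG dinucleotides, the letters that Polycomb-associated CpG islands are rich in.
Hoxa9 (chr6:52227371-52227620, minus strand): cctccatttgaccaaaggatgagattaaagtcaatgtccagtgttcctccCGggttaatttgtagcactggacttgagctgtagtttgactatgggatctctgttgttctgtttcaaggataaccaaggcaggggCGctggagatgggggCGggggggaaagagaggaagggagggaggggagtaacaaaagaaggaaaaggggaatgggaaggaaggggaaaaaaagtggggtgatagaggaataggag
Hoxa10 (chr6:52240855-52241104, minus strand): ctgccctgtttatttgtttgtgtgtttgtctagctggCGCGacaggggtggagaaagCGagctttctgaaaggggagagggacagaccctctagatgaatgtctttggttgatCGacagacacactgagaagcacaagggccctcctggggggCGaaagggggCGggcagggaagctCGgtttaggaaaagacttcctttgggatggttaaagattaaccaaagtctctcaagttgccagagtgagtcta
Hoxa13 (chr6:52260881-52261130, minus strand): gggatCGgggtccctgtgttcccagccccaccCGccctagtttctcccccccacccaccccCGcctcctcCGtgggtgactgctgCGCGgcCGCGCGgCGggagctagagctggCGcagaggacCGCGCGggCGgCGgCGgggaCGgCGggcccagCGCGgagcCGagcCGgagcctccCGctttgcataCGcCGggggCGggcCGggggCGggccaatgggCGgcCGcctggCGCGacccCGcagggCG
Hoxa13 held 35 CG dinucleotides with 80.0% G and C, Hoxa10 at this start 7 with 51.6%, and Hoxa9 3 with 49.6%. Over all 32817 promoters of that length the medians were 6 CG dinucleotides and 52.4%, and over the 17 Hox promoters with an entry 12 and 58%. RefSeq gives Hoxa10 another start, whose window held 20. Windows of the other on genes with an entry held from 6 (Hoxd8) to 28 (Hoxa5). Those of the near-zero genes Hoxb1, Hoxb8 and Hoxd3 held 7, 12 and 12. A relation of CG number to level was not tested. Neither methylation nor binding of any factor was measured in these libraries.

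In deficient libraries most Hox genes had higher levels than in controls, by less than 2-fold for the most part, and 1 of the 25 that could be tested passed the threshold. That gene was Hoxa9 (chr6:52223100-52231089), a regulator of upper limb pattern and of blood progenitors, which was 1.97-fold higher. The other 7 genes (Hoxb1, Hoxb6, Hoxb8, Hoxb9, Hoxc12, Hoxc13 and Hoxd3) had too few reads to be tested by edgeR's quasi-likelihood test. None was called lower. Of all 13926 genes tested, 0.639% were called higher (adjusted p below 0.05), 3.94% lower and 4.57% in either direction. That is 89 higher and 548 lower genes, or 10 higher and 634 lower when libraries were scaled on 25 mesenchymal genes in place of TMM. With 1 library left out, the counts ran from 0 higher and 74 lower (without control replicate 3) to 76 higher (without CXCL12-deficient replicate 2) and 530 lower (without control replicate 1), and without control replicate 2 they were 6 and 154.

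At an unadjusted p below 0.05, 10 of the 25 were higher and none lower, where 7.59% of all tested genes were higher. In 10 of the 25, every CXCL12-deficient library lay above every control library, against 11.7% of all tested genes. A log2 fold change above 0 was found for 23 of the 25 and for 52.6% of all tested genes, and the exceptions were Hoxa6 (-0.48 ± 0.80) and Hoxa13 (-0.46 ± 1.22, SE), both of few reads. The median over the 25 was 0.67, beside 0.03 over all tested genes. With the mesenchymal scaling the medians were 0.40 and -0.24. With 1 library left out, the median over the 25 ran from 0.49 (without control replicate 3, with 19 of the 25 above 0) to 0.82 (without control replicate 1). On the deposited log2 values it was 0.19, with 23 of the 25 above 0. Those values are regularized, which shrinks differences, so 0.19 is not on the scale of the other medians. With the mesenchymal scaling 21 of the 25 were above 0 and 4 had an unadjusted p below 0.05, Hoxa9 lost its call (edgeR adjusted p = 0.208) and none of the 25 was called. DESeq2 called 3 (Hoxa7, Hoxa9 and Hoxa10) where it called 2.27% of all genes higher, and limma-voom called Hoxa9 where it called 0.603% higher. Members of a cluster lie side by side and their levels may move together, so their number is not a number of independent results.

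**Figure D2:**
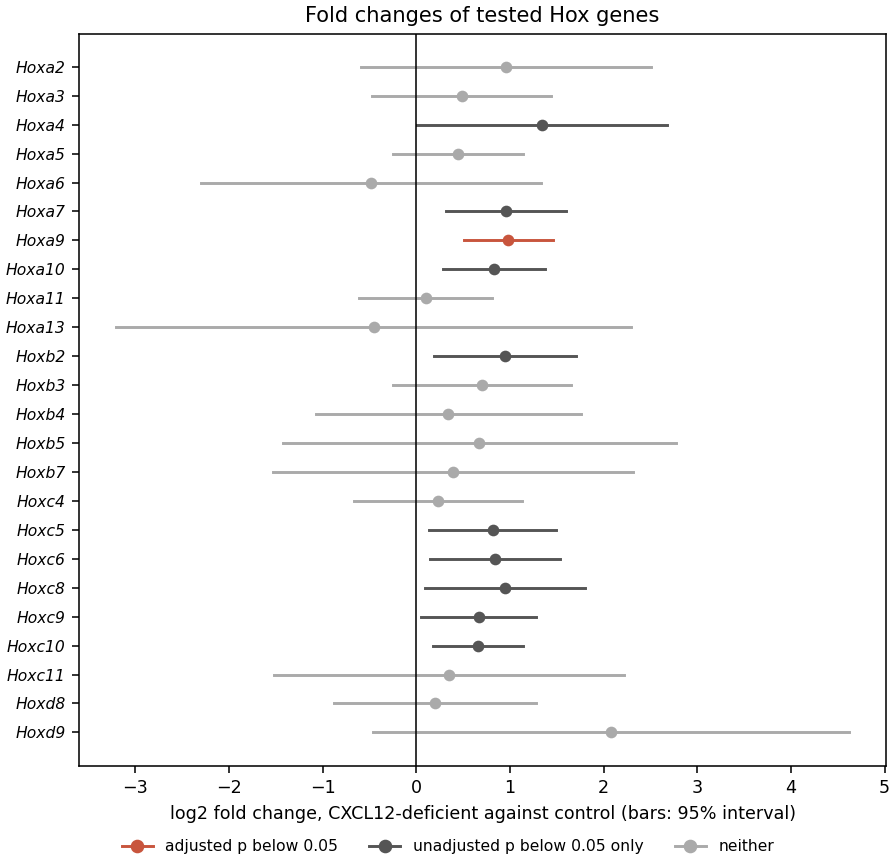
Log2 fold change of 24 tested Hox genes, CXCL12-deficient against control (3 libraries each), with the 95% interval as a bar, in the order of clusters and paralogue groups. Hoxa9 is the one point past the adjusted threshold, 9 further intervals lie above 0, and Hoxa11 sits near 0 between Hoxa10 and Hoxa13.

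At the 5′ end of the Hoxa cluster, Hoxa9 had 24.6, 32.1 and 26.5 CPM in the control libraries and 46.4, 48.4 and 69.2 CPM in the CXCL12-deficient ones. The means were 27.7 ± 3.91 and 54.7 ± 12.6 CPM (SD, n = 3), a log2 fold change of 0.98 ± 0.21 (SE; edgeR adjusted p = 0.0342). The groups did not overlap, and CXCL12-deficient replicate 3 was the highest. With 1 library left out its log2 fold change ran from 0.78 to 1.10, and edgeR called it in 1 of the 6 refits, the one without CXCL12-deficient replicate 1 (adjusted p from 0.0391 to 0.169).

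Hoxa10 had 118, 117 and 80.4 CPM in the control libraries and 159, 147 and 253 CPM in the deficient ones. It was 1.77-fold higher, with means of 105 ± 21.4 and 186 ± 57.8 CPM, and did not pass the threshold (log2 fold change 0.83 ± 0.24, edgeR adjusted p = 0.0998). Again the groups did not overlap, and CXCL12-deficient replicate 3 stood above the other libraries. Hoxa7, of the trunk code, had 20.5, 12.7 and 9.92 CPM against 27.3, 31.9 and 24.8 CPM, a log2 fold change of 0.96 ± 0.28 (edgeR adjusted p = 0.106). Its 3 deficient libraries also lay above all controls, and without control replicate 1 it passed (adjusted p = 0.0341). Of its exon bases, 20.4% are shared with an antisense transcript. That Hoxa9 passed and Hoxa10 and Hoxa7 did not is no evidence of a difference between them, since their 95% intervals (0.51 to 1.45, 0.28 to 1.37 and 0.32 to 1.60) overlap.

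Hoxa11 (chr6:52242106-52245810), the gene of the middle limb segment, had 10.5, 7.20 and 7.23 CPM in the control libraries and 7.71, 7.46 and 11.6 CPM in the deficient ones. The groups overlapped, and the log2 fold change was 0.10 ± 0.31 with a 95% interval of -0.61 to 0.81 (edgeR adjusted p = 0.906). That interval overlaps the one of Hoxa10 (0.28 to 1.37). Its sign turned under the mesenchymal scaling (-0.17) and when replicate 3 of the controls (-0.0034) or of the deficient libraries (-0.13) was left out. An antisense transcript covers 35.0% of its exon bases. That transcript, listed as Hoxa11as, had 5.62 ± 2.82 and 5.61 ± 1.05 CPM.

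The ratio of 2 genes within a library does not depend on how libraries are scaled. The ratio of Hoxa10 to Hoxa11 reads was 11.2, 16.2 and 11.1 in the control libraries and 20.6, 19.8 and 21.8 in the CXCL12-deficient ones. All 3 deficient libraries lay above the controls, by 0.71 on the log2 scale (exact two-sided permutation p = 0.1, the smallest that 3 against 3 allows). For Hoxa9 to Hoxa11 the ratio was 2.34, 4.46 and 3.66 in the control libraries and 6.02, 6.49 and 5.97 in the deficient ones, a difference of 0.87 with the same p. Both ratios were chosen after the values of these genes were seen.

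**Figure D3:**
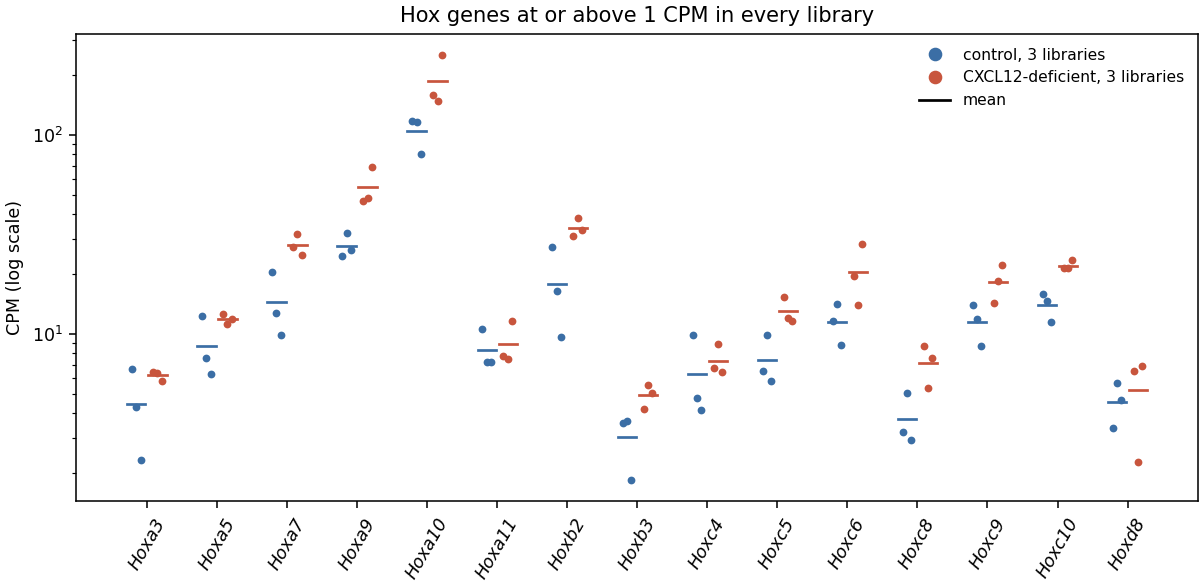
CPM on a log axis of 15 Hox genes at or above 1 CPM in every library. Points are libraries (3 control in blue, 3 CXCL12-deficient in red) and lines are means. Hoxa10 lies above all other genes, the red points of Hoxa7, Hoxa9, Hoxa10, Hoxb2 and Hoxc10 lie above the blue ones, and those of Hoxa11 and Hoxc4 overlap.

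In the anterior part of the Hoxa cluster 1 gene reached an unadjusted p below 0.05. Hoxa4 (chr6:52189671-52191753) had 2.50, 2.03 and 0.567 CPM in the control libraries and 3.17, 4.58 and 5.24 CPM in the deficient ones. Its groups did not overlap, at a low level and with a wide error (log2 fold change 1.34 ± 0.59, edgeR adjusted p = 0.263). Hoxa5 (chr6:52201754-52204587), which patterns the neck and upper trunk, had 12.3, 7.60 and 6.28 against 12.6, 11.3 and 11.9 CPM. Control replicate 1 was as high as the deficient libraries, and the log2 fold change was 0.45 ± 0.31 (edgeR adjusted p = 0.494). Hoxa2 and Hoxa3 had log2 fold changes of 0.96 and 0.48, with edgeR adjusted p of 0.511 and 0.605.

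Of the Hoxb genes tested, 5 of 5 had a positive log2 fold change, between 0.34 and 0.94, and none was called. Hoxb2 (chr11:96350525-96354012), of the hindbrain code, was the most abundant, with 27.2, 16.3 and 9.68 CPM in the control libraries and 31.1, 38.2 and 33.2 CPM in the deficient ones. The groups did not overlap, but the controls differed among themselves by more than the deficient libraries did (log2 fold change 0.94 ± 0.34, edgeR adjusted p = 0.166). It passed without control replicate 1 (adjusted p = 0.0419). An antisense gene that also lies in Hoxb3 covers 27.3% of its exon bases. Hoxb3 had 3.57, 3.66 and 1.84 against 4.21, 5.54 and 5.02 CPM (log2 fold change 0.70 ± 0.42, edgeR adjusted p = 0.422), again with no overlap.

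Among the Hoxc genes 7 of 7 tested had a positive log2 fold change and none was called. Hoxc10, known for hindlimb and lumbar pattern, had 15.8, 14.6 and 11.5 CPM in the control libraries and 21.3, 21.5 and 23.4 CPM in the deficient ones. The means of 14 ± 2.21 and 22.1 ± 1.16 CPM were separated by more than their spread (log2 fold change 0.66 ± 0.21, edgeR adjusted p = 0.135). Hoxc9 (chr15:102976439-102985099), of the lower trunk code, had 14, 11.9 and 8.64 against 14.4, 18.4 and 22.2 CPM, with a narrow gap between the groups (0.67 ± 0.27, adjusted p = 0.228 by edgeR). Hoxc8 (chr15:102990607-102994111) had 3.21, 5.04 and 2.93 against 8.66, 5.32 and 7.55 CPM (0.94 ± 0.38, edgeR adjusted p = 0.219).

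Hoxc6 (chr15:102998257-103011881) had 11.6, 14.1 and 8.83 CPM in the control libraries and 19.6, 14 and 28.1 CPM in the deficient ones, and here the groups overlapped, through CXCL12-deficient replicate 2 (log2 fold change 0.84 ± 0.31, edgeR adjusted p = 0.178). Hoxc5 (chr15:102967443-103017429) had 6.50, 9.84 and 5.76 against 15.4, 11.9 and 11.6 CPM with no overlap (0.82 ± 0.30, edgeR adjusted p = 0.180). Hoxc5 and Hoxc10 share annotated exon bases on the same strand, so some reads could have been given to either or to neither. Hoxc4 (chr15:103018934-103036852) had 9.85, 4.76 and 4.16 against 6.71, 8.85 and 6.44 CPM. It overlapped (0.23 ± 0.40, edgeR adjusted p = 0.818), and its sign turned without control replicate 3 (-0.0061). In the Hoxd cluster, Hoxd8 and Hoxd9 had log2 fold changes of 0.19 ± 0.48 and 2.08 ± 1.13, with adjusted p of 0.872 and 0.364 by edgeR.

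The order of the 32 genes by CPM per kilobase was nearly the same in the groups' means, with a Spearman rho of 0.98 across genes, which are not independent replicates and span a wide range of levels. Summed over members, the Hox genes took 302, 276 and 198 CPM in control libraries and 400, 396 and 541 CPM in CXCL12-deficient ones. Control replicate 3 was the lowest and CXCL12-deficient replicate 3 the highest. Without either of them none of the 25 was called by edgeR, with 5 (without the control) and 6 (without the deficient library) at an unadjusted p below 0.05. Their medians over the 25 were 0.49 and 0.53 on the log2 scale.

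Markers of other cell types moved between the groups in the same libraries. In bulk RNA, fewer cells of a type and less RNA per cell cannot be told apart. Summed over 12 markers of CXCL12-abundant reticular cells, the main stromal type of marrow, controls ran from 8945 to 10474 CPM and deficient libraries from 12120 to 14606 CPM, and 2 of the 12 (Ebf3 and Adipoq) were called higher. The 14 neutrophil markers summed to between 15319 and 21021 CPM in the control libraries and between 2892 and 7111 CPM in the deficient ones, with 13 called lower. Of 14 endothelial markers, 8 were called lower, with sums of 233 to 309 and of 142 to 170 CPM. Of all tested genes, 0.639% were called higher and 3.94% lower.

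Markers of blood progenitors, cells that express Hoxa9 and Hoxa10, summed over 12 genes to between 206 and 288 CPM in the control libraries and to between 91.5 and 166 CPM in the deficient ones, and 3 of 10 tested were called lower. That list shares Meis1, a Hox partner, with the cofactors. The leukocyte gene Ptprc had 59.8, 75.4 and 107 CPM in the control libraries and 12.7, 16.9 and 10.2 CPM in the deficient ones. Of the other lists, 6 of 12 monocyte and macrophage, 3 of 10 B lineage, 5 of 8 megakaryocyte and 3 of 6 fibroblast markers were called lower. Of all tested genes, 3.94% were. Summed fibroblast markers nevertheless overlapped, with 898 to 1546 CPM in controls and 1129 to 1223 CPM in deficient libraries. No chondrocyte, osteoblast or erythroid marker was called by edgeR. Chondrocyte markers summed to 227 to 1517 CPM in controls and 161 to 547 CPM in deficient libraries, osteoblast markers to 8597 to 29465 and 13651 to 20586 CPM, and erythroid markers to 1823 to 3022 and 1324 to 4524 CPM. At an unadjusted p below 0.05, 1 osteoblast marker was higher and no other marker of these 3 lists differed. No marker in any list was at 0 in all libraries. The part of these shifts in the Hox levels was not tested.

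The Hox partners were expressed in both groups and none was called. Of the 9 genes of the Pbx, Meis and Pknox families, 8 were on. The median log2 fold change was 0.33, beside 0.03 over all tested genes, and 8 of 9 were positive, beside 52.6%. At an unadjusted p below 0.05 in edgeR, 2 of the 9 were higher, beside 7.59% of all tested genes. Meis3 and Pknox2 were the most abundant. Meis3 had 80.2, 63.5 and 55.7 CPM in the control libraries and 78.5, 91.7 and 97.5 CPM in the deficient ones (log2 fold change 0.42 ± 0.18, edgeR adjusted p = 0.242). Pknox2 had 57.0, 60.5 and 55.2 against 38.1, 40.9 and 98.1 CPM, so its CXCL12-deficient replicate 3 stood apart (0.04 ± 0.33, adjusted p = 0.971 by edgeR). Pbx4 was the one member below 1 CPM in some libraries.

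**Figure D4:**
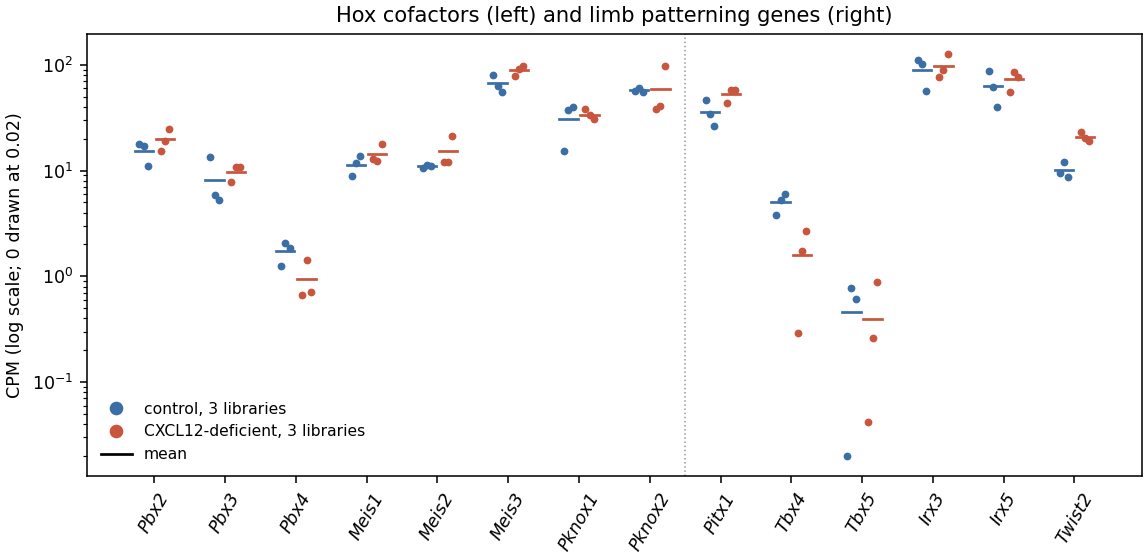
CPM on a log axis of 8 Hox cofactors (left of the dotted line) and of 6 limb patterning genes (right). Points are libraries (3 control in blue, 3 CXCL12-deficient in red), lines are means, and a value of 0 is drawn at 0.02. Pitx1 lies above Tbx4 in every library, the red points of Tbx4 lie below the blue ones, and those of Twist2 above.

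Genes that tell hindlimb from forelimb were compared in the same way. Pitx1, which specifies the hindlimb, had 46.6, 34.5 and 26.5 CPM in the control libraries and 43.3, 57.1 and 57.5 CPM in the deficient ones. The groups overlapped (log2 fold change 0.55 ± 0.23, edgeR adjusted p = 0.237). Its hindlimb partner Tbx4 had 3.78, 5.24 and 5.95 CPM in the control libraries and 0.292, 1.74 and 2.71 CPM in the deficient ones. Here every deficient library lay below every control, without passing the threshold (-1.66 ± 0.70, edgeR adjusted p = 0.239). The forelimb gene Tbx5 had 0, 0.772 and 0.614 CPM and 0.0417, 0.262 and 0.888 CPM, no more than 1 CPM in any library. Among all 10 limb field genes tested, none was called. At an unadjusted p below 0.05 in edgeR, 2 (Pitx1 and Tbx15) were higher and 1 (Tbx4) lower. Of all tested genes 7.59% were higher at that limit, and the share lower was not computed. The most abundant were Irx3, with 89.4 ± 28.8 and 98.0 ± 26.2 CPM, and Irx5, with 62.5 ± 23.7 and 72.7 ± 15.9 CPM.

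Of 18 limb mesenchyme genes tested, 1 was called. Twist2, a regulator of mesenchymal cells, had 9.50, 12.1 and 8.69 CPM in the control libraries and 23.2, 20.3 and 18.9 CPM in the deficient ones. It rose by 1.04 ± 0.23 on the log2 scale (edgeR adjusted p = 0.0403), with no overlap. Twist2 is also 1 of the 25 scaling genes, and with the mesenchymal scaling, or with any 1 library left out, it was not called. The median of the 18 was 0.06.

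Of 23 Polycomb genes tested, 1 was called. Ezh1, a histone H3K27 methyltransferase of non-dividing cells, had 38.8, 39.5 and 35.3 CPM in the control libraries and 58.5, 64.5 and 61.2 CPM in the deficient ones. It rose by 0.70 ± 0.15 (log2, edgeR adjusted p = 0.0343), with no overlap, and was not called with any 1 library left out or with the mesenchymal scaling. Under that scaling no Polycomb or Trithorax gene was higher and 6 were lower at an unadjusted p below 0.05. With TMM, 3 Polycomb genes were higher (Ezh1, Cbx7 and Cbx8) and 4 lower (Eed, Suz12, Jarid2 and Pcgf5) at that limit. With TMM 7.59% of all tested genes were higher at it. Such a share was not computed for lower genes or for the mesenchymal scaling, so those counts have no background beside them. Ezh2, the methyltransferase of dividing cells, had 49.2, 69.0 and 81.3 CPM in the control libraries and 54.9, 53.8 and 33.9 CPM in the deficient ones (-0.48 ± 0.25, edgeR adjusted p = 0.332), and was named after its values were seen. The list thus held members in both directions, with a median of 0.19.

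None of 11 Trithorax and H3K27 demethylase genes was called, nor had any an unadjusted p below 0.05 in edgeR, and the median was -0.03. The most abundant were Psip1, with 102 ± 9.81 and 106 ± 16.5 CPM, and Ash2l, with 79.8 ± 10.9 and 86.3 ± 2.01 CPM. Of the genes beside the clusters and the non-coding genes within them, 12 were tested and none was called, with a median of 0.06. At an unadjusted p below 0.05 in edgeR, 2 were higher, beside 7.59% of all tested genes, and 1 was lower. Skap2, at the 3′ side of the Hoxa cluster, had 119 ± 6.36 CPM in the control libraries and 91.4 ± 9.08 CPM in the deficient ones (log2 fold change -0.38 ± 0.14, edgeR adjusted p = 0.190). Hibadh, on the other side of the 5′ end, had 122 ± 12.9 and 130 ± 17.8 CPM. The non-coding gene Hotair, of the Hoxc cluster, stayed below 1 CPM, with 0.610 ± 0.295 and 0.481 ± 0.399 CPM.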

How the data were processed

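The libraries were made with the SMARTer kit and Nextera XT, per the labels. The authors deposited whole-number read counts per gene for 6 libraries, and regularized log2 values used here as an alternative only. Per the submitters' processing notes, the build was mm10 and the tools included TopHat2 2.0.13, HTSeq, DESeq2, Bowtie2 2.2.1, Cuffdiff, Cufflinks and FastQC. The role of each tool, the strand setting, the annotation and the handling of shared reads were not given in the sources used here.

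The table held 17131 entries. The 4 exon entries of Cxcl12 were summed, which left 17128 genes. The groups were compared by edgeR 4.0.16 (TMM, filterByExpr with minimum count 10 and total 15, robust quasi-likelihood F-test, R 4.3.3), with Benjamini-Hochberg adjustment over the 13926 genes kept and a threshold of 0.05. Standard errors came from the F statistic. Exon lengths and coordinates come from GENCODE M21 on GRCm38 (the sequence of mm10), which may differ from the annotation behind the counts. A longer annotated exon union lowers a level per kilobase. No replicate numbers, batches or sexes are labelled, and replicate numbers here only name the libraries. Alternatives were DESeq2 1.42.0, limma-voom (limma 3.58.1), 3 other scalings, 2 other filters, no robust shrinkage, the deposited log2 values, and leaving out each library. The fit was tested on simulated counts.

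Full values are given for Hox genes that were called, had an unadjusted p below 0.05 or were among the 12 with the highest level per kilobase. For the lists of Hox partners, limb, chromatin and neighbouring genes, the called members are named or, where none was, the 2 most abundant, and also Pitx1, Tbx4 and Tbx5. Cell type marker lists are given by counts and summed levels, with a median log2 fold change for the reticular cell list. Only Ebf3, Adipoq and Ptprc are named. The members and the 18 gene lists were chosen with earlier results of these data known. Some items, counted within the totals, are not reported here individually. Cdx genes were listed, and none of the 3 was analysed here.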

Additional observations from a re-analysis of the deposited data

How the results depend on the processing

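With 1 library left out, the number of Hox genes called ran from 0 to 2, beside 1 in the full comparison. Without control replicate 1 it was 2 (Hoxa7 and Hoxb2, with Hoxa9 lost), without CXCL12-deficient replicate 1 it was 1 (Hoxa9), and it was 0 without any of the other 4. DESeq2 called 3, scaling on mesenchymal genes gave 0 (4 at an unadjusted p below 0.05), and each of the other 7 settings called 1. For the limb genes and for the Polycomb and Trithorax genes, 1 call each fell to 0 with the mesenchymal scaling and to 0 in all 6 refits without a library. The cofactors had 0 calls under every setting. The log2 fold change of Hoxa11 turned negative with the mesenchymal scaling (-0.17) and ran from -0.13 to 0.29 with 1 library left out, that of Hoxc4 from -0.0061 (without control replicate 3) to 0.70. The other 11 Hox genes refitted one by one (Hoxa4, Hoxa5, Hoxa7, Hoxa9, Hoxa10, Hoxb2, Hoxc5, Hoxc6, Hoxc8, Hoxc9 and Hoxc10) kept a positive sign under every setting in which they were tested, and the remaining Hox genes have no values of their own under these settings. With a limit of 5 CPM for being on, 10 Hox genes were on in place of 16, with 0.5 CPM 19, with 1 CPM per kilobase 12, and with 1 library left out 16 to 17. No paired analysis was possible because the labels give the libraries no replicate numbers. With 3 libraries a group, levels under about 1 CPM rest on few reads.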

Other observations

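Low Hox genes varied among the libraries of a group. Control replicate 1 held the most reads of Hoxa13 (20, beside 1 and 12), Hoxb6 and Hoxc11 (1.78, beside 0.406 and 0.331 CPM). It also held the highest control values of Hoxa3, Hoxa5, Hoxa7, Hoxb2 and Hoxc4. Hoxd9 was highest in replicate 3 of both groups (0.614 and 2.26 CPM). These genes were picked after their values were seen.

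Chosen in the same way, the gene Smug1, which lies beside the Hoxc cluster and encodes a DNA repair enzyme, had 12, 14.5 and 12 CPM in controls and 25.6, 19.8 and 21.1 CPM in CXCL12-deficient libraries, a log2 fold change of 0.79 ± 0.22 (edgeR adjusted p = 0.0823). The groups did not overlap. Mtx2, beside the Hoxd cluster, had 66.9 ± 5.96 and 86.1 ± 7.82 CPM (0.36 ± 0.15, edgeR adjusted p = 0.233). The Hoxa cluster's non-coding gene listed as Mira had 3.18, 1.5 and 1.84 CPM in controls and 3.46, 3.62 and 3.55 CPM in CXCL12-deficient libraries (0.70 ± 0.47, edgeR adjusted p = 0.488).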
